A study of Mus musculus with 14 samples.

Results

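The ribosome biogenesis genes described here are 40 genes taken by symbol from a fixed list. They encode nucleolar proteins, RNA polymerase I subunits, small nucleolar ribonucleoprotein (snoRNP) subunits and assembly factors of the small and large ribosomal subunits. Each of the 40 had 1 row among the 13406 genes of a table of doxycycline and untreated libraries and 1 row among the 14563 genes of a table of transduced libraries. The cells were acute myeloid leukaemias of C57/BL6 mice, taken from the spleens of sick animals. They carried a Tet-Off MLL-AF9 fusion oncogene with a dsRED reporter, and an oncogenic NRASG12D vector that also encodes the Tet-Off activator. The 4 doxycycline libraries came from cells held with doxycycline in vitro for 4 days, which switches the fusion off, and were set against 4 untreated libraries. The 3 Id2-GFP libraries came from the same kind of leukaemia transduced with an Id2 vector and sorted for GFP after 2 days, and no doxycycline is named for them. They were set against 3 control-GFP libraries. NRASG12D was present in all 14 libraries, and MLL-AF9 came from a retroviral vector in foetal liver cells rather than from the native locus. No group was treated with doxycycline without the Tet-Off vector. The labels do not state whether replicates are separate animals or cultures, and p-values therefore measure the spread between these libraries alone, which may be technical.

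Ribosome production begins in the nucleolus, where RNA polymerase I copies the ribosomal DNA into a long precursor. Box C/D snoRNPs methylate that precursor and box H/ACA snoRNPs convert some of its uridines to pseudouridine. Processing factors then cut it while assembly factors fold it with ribosomal proteins into the small and large subunits. Growing myeloid progenitors and leukaemia cells make ribosomes at a high rate, and many genes of the pathway are known targets of the transcription factor MYC. Id2 encodes a helix-loop-helix protein without a DNA-binding domain that binds E proteins, which recognise E-box sequences.

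Because MYC with its partner MAX recognises the E-box CACGTG, the promoters of 3 members are shown, chosen after their values were seen. Each runs from 250 bases before to 50 bases after the annotated start, as given by RefSeq on GRCm38.p6, with CACGTG in capitals. Tsr1 and Utp18 hold the motif, and their changes after doxycycline were among the larger and the smallest of the 40. Dkc1, whose change was the largest, has none in this window.
Tsr1, chr11:74897830-74898129, plus strand: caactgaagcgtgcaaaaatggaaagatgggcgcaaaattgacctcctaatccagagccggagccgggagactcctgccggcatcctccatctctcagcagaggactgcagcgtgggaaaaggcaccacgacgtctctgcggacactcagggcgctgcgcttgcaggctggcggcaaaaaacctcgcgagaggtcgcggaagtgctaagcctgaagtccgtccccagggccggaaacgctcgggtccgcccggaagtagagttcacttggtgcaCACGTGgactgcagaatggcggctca
Utp18, chr11:93885717-93886016, minus strand: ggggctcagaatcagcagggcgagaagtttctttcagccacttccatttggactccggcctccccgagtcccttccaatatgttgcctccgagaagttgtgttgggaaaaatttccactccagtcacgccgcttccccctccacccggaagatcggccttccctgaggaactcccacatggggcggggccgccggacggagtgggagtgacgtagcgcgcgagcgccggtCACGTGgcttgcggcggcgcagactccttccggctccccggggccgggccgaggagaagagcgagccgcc
Dkc1, chrX:75095604-75095903, plus strand: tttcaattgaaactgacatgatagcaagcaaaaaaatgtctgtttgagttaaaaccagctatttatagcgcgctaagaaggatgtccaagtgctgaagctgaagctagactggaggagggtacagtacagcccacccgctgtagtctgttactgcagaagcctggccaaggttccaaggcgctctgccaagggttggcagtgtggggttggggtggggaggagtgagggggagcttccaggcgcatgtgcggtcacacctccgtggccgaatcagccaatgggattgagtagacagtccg

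The RefSeq promoter table held 34 of the 40 members. CACGTG, which reads the same on both strands, was present in 8 of the 34 (23.5%), against 8.09% of the 27025 genes with a promoter in that table and 11.9% of the 8988 of them that also had a row in the doxycycline table. The 8 genes were Mybbp1a, Nop2, Pes1, Pno1, Tsr1, Utp18, Utp20 and Wdr43. In Tsr1 the motif began 24 bases after the start, and in Utp18 it began 20 bases before it. The median change of these 8 genes after doxycycline was −0.80 on the log2 scale, and that of the 26 without the motif was −0.78. The E-protein motif CAGGTG, or CACCTG on the other strand, was found in 0 of the 34 promoters. It was found in 22.6% of all 27025 and in 20.1% of the 8988. The palindromic E-box CAGCTG was found in 5 of the 34 (14.7%), in 18.3% of all and in 17.6% of the 8988. These are matches of letters, and binding was not measured.

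The labels of the doxycycline experiment were checked on the genes joined in the fusion. Mll1, its 5′ partner, averaged 128 ± 13.2 CPM (counts brought to 1 depth by the scaled library sizes) in doxycycline libraries and 3901 ± 1931 CPM in untreated libraries (SD, n = 4 each). Mllt3, which encodes AF9, averaged 5.85 ± 0.665 CPM in doxycycline libraries and 489 ± 255 CPM in untreated libraries. Myc had 68.0, 71.1, 74.3 and 53.2 CPM in doxycycline libraries, against 139, 148, 137 and 133 CPM in untreated libraries, and it fell by 1.07 on the log2 scale (SE 0.10, limma adjusted p = 9.6e-06). Library depth on the tabled genes ran from 17922644 to 25959766 reads in the doxycycline table and from 14051150 to 14948487 in the transduced table. The least covered value of any member was 273 reads in the first table and 304 in the second. Of the myeloid and leukaemia cell markers, 11 of 12 had a row in each table, and after doxycycline 5 were called higher, 5 lower and 1 neither, from −3.72 for Kit to 2.06 for Csf1r on the log2 scale. Their summed level was 5376 to 6186 CPM in doxycycline libraries and 3947 to 4470 CPM in untreated libraries.

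All 40 ribosome biogenesis genes fell after doxycycline. Each passed the test in limma across all 13406 genes at an adjusted p below 0.05, each had every doxycycline library below every untreated library, and each was lower in 4 of 4 pairs. The same test called 33.8% of all genes lower and 31.3% higher, 31.1% of all genes had doxycycline libraries wholly below untreated ones, and 38.9% were lower in all 4 pairs. The median change of the 40 was −0.79 on the log2 scale, beside −0.03 over all genes of the table, and 8.74% of all genes had a change below that median. Changes ran from −1.47 for Dkc1 to −0.34 for Utp18, and 9 of the 40 were both called and at least 2-fold lower, a class that held 5.18% of all genes. Summed over the 40, the level was 3005 to 3227 CPM in the doxycycline libraries and 5454 to 5841 CPM in the untreated libraries. As a share of reads, this was 0.268% to 0.302% in the doxycycline libraries and 0.582% to 0.636% in the untreated libraries. CPM values are shares of the RNA sequenced from bulk cells, so fewer cells of a type and less RNA per cell cannot be told apart.

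**Figure D1:**
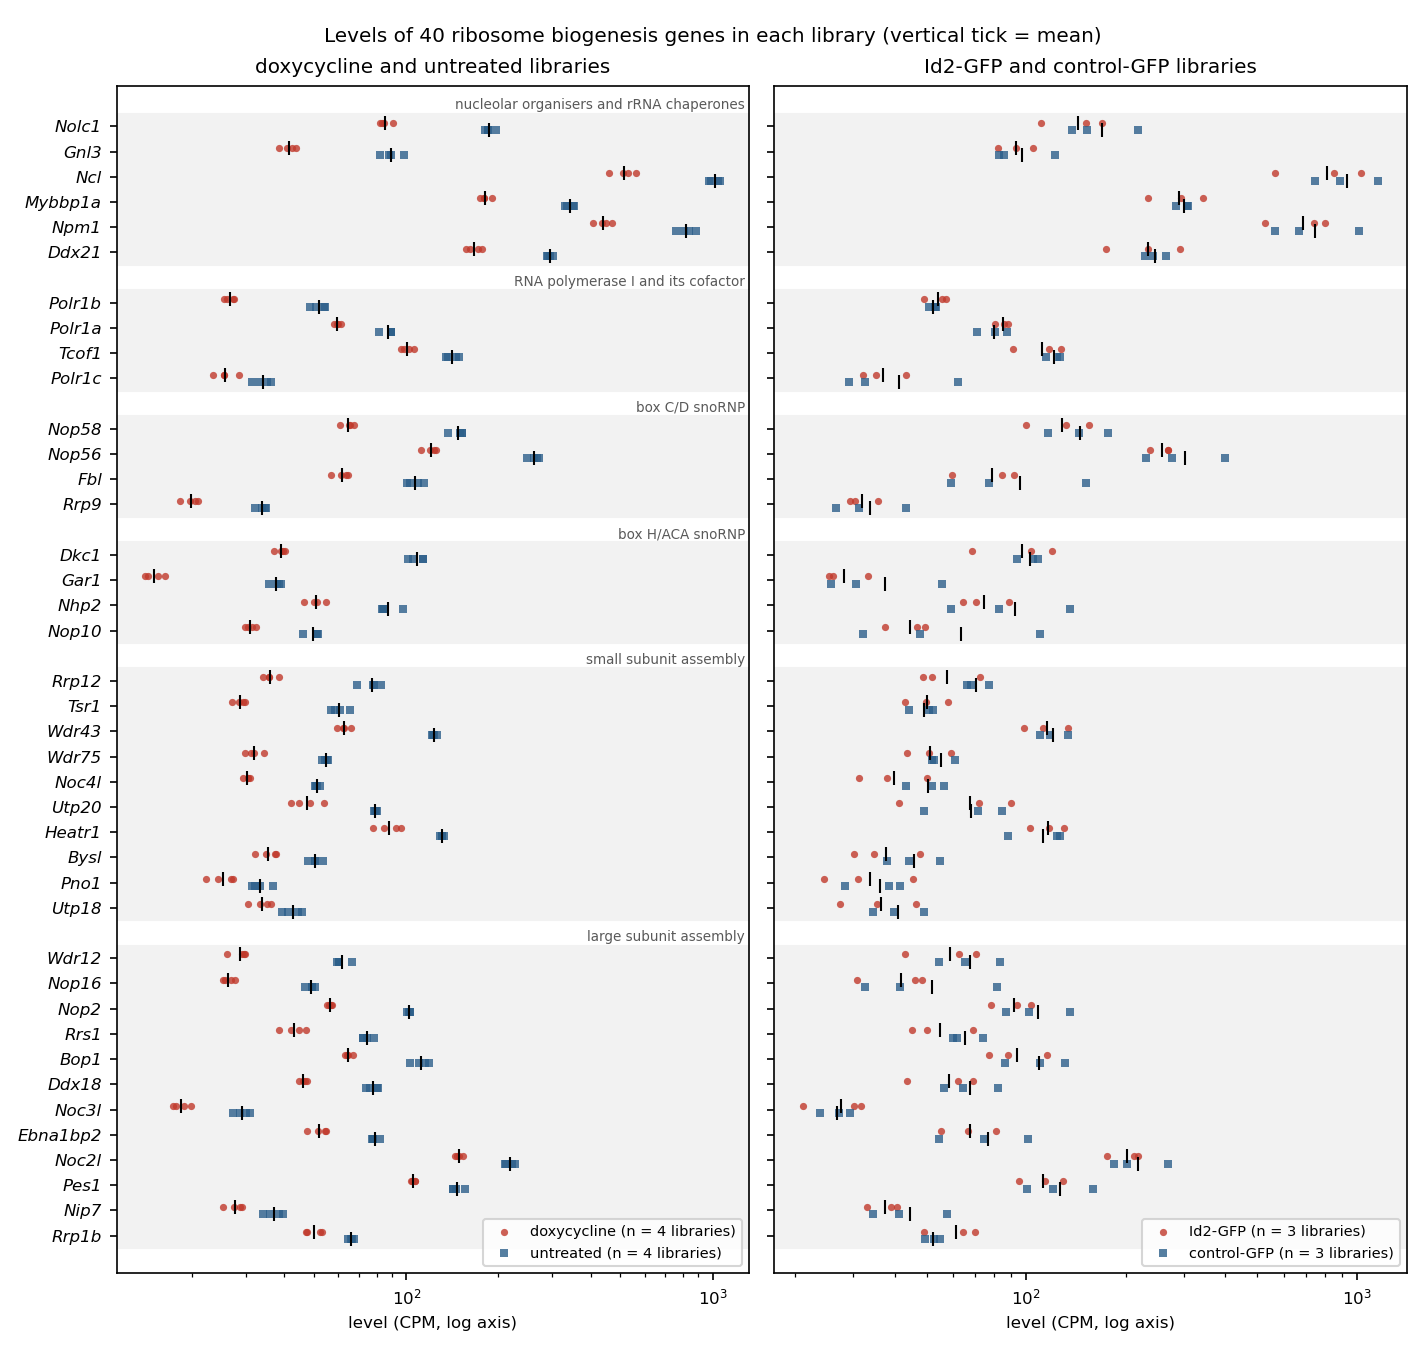
Level of each of the 40 genes in every library, in CPM on a log axis, grouped by role, with doxycycline and untreated libraries on the left and Id2-GFP and control-GFP libraries on the right; points are libraries and ticks are group means. On the left, the 4 doxycycline libraries lie below the 4 untreated libraries for all 40 genes, and on the right the groups overlap for all 40.

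The fall was of like size in each pair of libraries. The median of the 40 changes was −0.83 in pair TRIMA2-M1B1, −0.79 in TRIMA2-M3B1, −0.77 in TRIMA2-M4B1 and −0.83 in TRIMA1-M4B1, and 40 of 40 were lower in each pair. The titles of the doxycycline libraries of 3 pairs end in R, the meaning of which the labels do not give, and 0 untreated titles do, so what it marks cannot be told apart from doxycycline in those pairs. The title of the doxycycline library of TRIMA2-M4B1 does not end in R. TRIMA1-M4B1 is the only pair with the TRIMA1 label, whose meaning the labels do not give. Without it the 3 TRIMA2 pairs gave 40 of 40 members called lower and a median of −0.79. With the pair as a block in the model, limma called 69.6% of all genes in either direction, and 40 of 40 members were again called lower.

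The scaling of libraries moved the size of the fall. When values were scaled to the plain read totals of the tabled genes in place of the authors' scaled library sizes, the median of all genes was −0.27 and that of the 40 members was −1.03. The same test then called 6912 genes lower and 2702 higher, against 4535 lower and 4198 higher on the deposited values, so that 51.6% of all genes counted as lower. A change of library size shifts all genes of a library alike, so the distance of the members' median from that of all genes, −0.76, is the same with either scaling by construction. With quantile normalization it was −0.75.

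Nucleolar organisers and rRNA chaperones are abundant proteins that hold the nucleolus together and bind the nascent precursor. The 6 members of this role, Ncl, Npm1, Nolc1, Gnl3, Mybbp1a and Ddx21, fell with a median of −0.95 on the log2 scale. Nolc1, which encodes a chaperone that carries snoRNPs between the Cajal body and the nucleolus, had 84.3, 83.3, 90.3 and 81.9 CPM in doxycycline libraries, against 196, 184, 185 and 181 CPM in untreated libraries. It fell by 1.14 (SE 0.05, limma adjusted p = 2.41e-07), the largest change of the role, and its groups were far apart. Ddx21, an RNA helicase of the nucleolus, had 177, 157, 171 and 161 CPM in doxycycline libraries, against 302, 294, 288 and 291 CPM in untreated libraries. It fell by 0.82 (SE 0.05, limma adjusted p = 8.27e-07), the smallest change of the role, and its groups did not overlap either. Gnl3, which encodes nucleostemin, a GTPase of stem and cancer cell nucleoli, fell by 1.11. Ncl, which encodes nucleolin, fell by 0.99, the transcriptional regulator gene Mybbp1a by 0.92 and Npm1, which encodes nucleophosmin, by 0.90. Per kilobase of exon, Npm1 had the highest level of the 40 genes, at 165 CPM per kilobase in doxycycline libraries and 308 in untreated libraries.

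RNA polymerase I subunits and the cofactor Tcof1 showed the smallest median fall of the 6 roles, −0.52 over 4 members. Polr1b encodes the second largest subunit of the enzyme. It had 25.4, 26.0, 27.1 and 27.4 CPM in doxycycline libraries, against 48.4, 53.7, 54.3 and 50.5 CPM in untreated libraries, and fell by 0.96 (SE 0.05, limma adjusted p = 7.26e-07). Polr1c, a subunit that RNA polymerases I and III share, had 25.3, 28.4, 25.5 and 23.3 CPM in doxycycline libraries, against 33.3, 36.1, 35.1 and 31.2 CPM in untreated libraries. It fell by 0.41 (SE 0.07, limma adjusted p = 0.000849), and its highest doxycycline library lay close below its lowest untreated library. Polr1a, the largest subunit, fell by 0.55 and Tcof1, which encodes the treacle protein, by 0.49. The members of this role thus did not fall in equal measure. The ratio of Polr1b to Polr1a within a library was 0.439 to 0.453 in doxycycline libraries and 0.543 to 0.621 in untreated libraries.

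The 3 largest falls of the 40 were those of the snoRNP subunits Dkc1, Gar1 and Nop58. Among the box C/D proteins, whose median was −0.96 over 4 members, Nop58 had 67.4, 65.6, 65.0 and 60.8 CPM in doxycycline libraries, against 149.6, 152, 153 and 137 CPM in untreated libraries. It fell by 1.19 (SE 0.05, limma adjusted p = 2.84e-07), and Nop56, its partner in the core particle, fell by 1.13. Fbl, the methyltransferase fibrillarin, fell by 0.79. Rrp9, which binds the U3 snoRNP, had 20.9, 19.7, 20.4 and 18.2 CPM in doxycycline libraries, against 34.4, 32.1, 34.8 and 33.7 CPM in untreated libraries, and fell by 0.77 (SE 0.06, limma adjusted p = 3.76e-06). Nop58 was thus lower relative to Fbl, with a ratio of 1.01 to 1.101 in doxycycline libraries and 1.34 to 1.48 in untreated libraries.

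Among the box H/ACA proteins, whose median was −1.05 over 4 members, Dkc1 encodes dyskerin, the pseudouridine synthase, which is also a part of telomerase. Dkc1 (ENSMUSG00000031403, chrX:75095854-75109777, plus strand, GRCm38) had 39.6, 38.9, 40.1 and 37.0 CPM in doxycycline libraries, against 114, 113, 105 and 101 CPM in untreated libraries. The doxycycline libraries lay within a narrow band at well under the untreated level, and Dkc1 fell by 1.47 (SE 0.05, limma adjusted p = 2.3e-07), which is 64.0% lower. Gar1, another subunit of the same particle, fell by 1.32, and Nhp2 fell by 0.78. Nop10, the smallest subunit, had 30.4, 31.4, 32.4 and 29.7 CPM in doxycycline libraries, against 51.1, 51.3, 50.6 and 45.8 CPM in untreated libraries, and fell by 0.68 (SE 0.05, limma adjusted p = 4.35e-06). The mRNAs of these subunits fell by unequal amounts, and their proteins were not measured. The ratio of Dkc1 to Nop10 within a library was 1.24 to 1.30 in doxycycline libraries and 2.08 to 2.22 in untreated libraries, and the 95% intervals of the changes, −1.59 to −1.36 for Dkc1 and −0.80 to −0.56 for Nop10, did not meet. The pairs of genes given as ratios were chosen after their values were seen, and no test was made of a ratio.

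**Figure D2:**
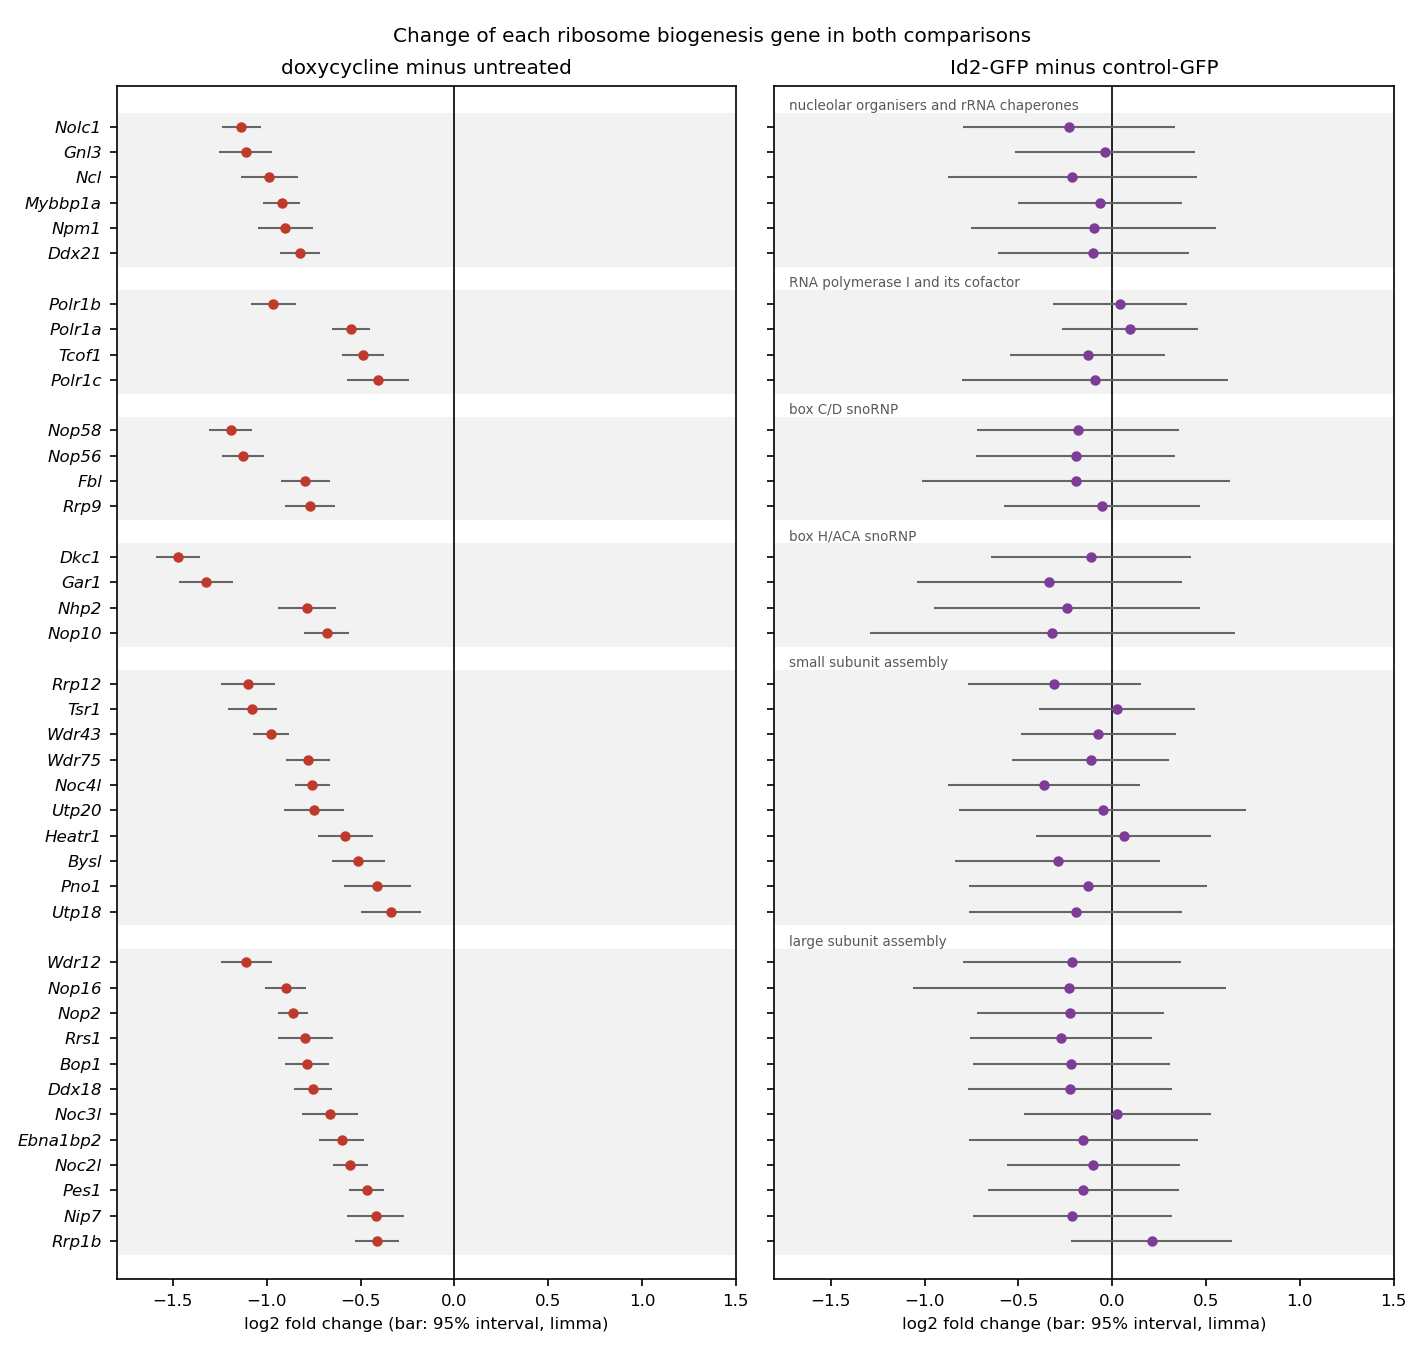
Log2 fold change of each of the 40 genes with its 95% interval from limma, grouped by role and ordered by the change after doxycycline, for doxycycline minus untreated on the left and Id2-GFP minus control-GFP on the right. All 40 intervals lie below 0 on the left, from −1.47 for Dkc1 to −0.34 for Utp18, and all 40 intervals span 0 on the right.

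The 10 members of small subunit assembly build the processome, the large complex that forms on the 5′ end of the precursor, and carry the later particle to the cytoplasm. Their median fall was −0.75, with the widest spread of the roles after box H/ACA. Rrp12, known from yeast for the export of pre-ribosomes, had 35.7, 34.0, 38.3 and 35.5 CPM in doxycycline libraries, against 82.8, 69.1, 78.7 and 77.6 CPM in untreated libraries. It fell by 1.101 (SE 0.06, limma adjusted p = 8.27e-07), with the lowest untreated library far above every doxycycline library. Utp18, a processome subunit, had 36.1, 30.4, 35.1 and 33.3 CPM in doxycycline libraries, against 45.7, 39.2, 41.1 and 44.4 CPM in untreated libraries. It fell by 0.34 (SE 0.07, limma adjusted p = 0.0022), the smallest change of the 40, although each pair was lower and the groups did not overlap. The other processome members fell by 0.98 for Wdr43, 0.78 for Wdr75, 0.75 for Utp20 and 0.58 for Heatr1. Noc4l fell by 0.76, and the late factors fell by 1.08 for Tsr1, 0.51 for Bysl and 0.41 for Pno1. Strand of the counting is not given in the sources used here, and 32.3% of the exon bases of Tsr1 overlap those of Srr on the other strand. Srr rose by 0.27 on the log2 scale (limma adjusted p = 0.0137), while Tsr1 fell. Whether reads of Srr were counted for Tsr1 was not tested. Bysl shares 9.37% of its exon bases with Ccnd3.

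The 12 members of large subunit assembly act on the particle from its first nucleolar forms until export, and they fell with a median of −0.71. Pes1, Bop1 and Wdr12 form the PeBoW complex, which is needed to process the precursor of the large subunit RNA. Wdr12 had 29.1, 26.0, 29.6 and 29.8 CPM in doxycycline libraries, against 66.6, 60.4, 60.5 and 59.5 CPM in untreated libraries, and fell by 1.11 (SE 0.06, limma adjusted p = 6.74e-07). Bop1 fell by 0.79 and Pes1 by 0.47, so the ratio of Wdr12 to Pes1 was 0.251 to 0.285 in doxycycline libraries and 0.410 to 0.430 in untreated libraries. Rrp1b, a nucleolar protein of the pre-ribosome, had 52.2, 47.3, 52.9 and 46.9 CPM in doxycycline libraries, against 64.5, 66.0, 66.5 and 67.5 CPM in untreated libraries. It fell by 0.41 (SE 0.05, limma adjusted p = 8.82e-05), the smallest change of the role. Between these lay Nop16 at −0.90, the RNA methyltransferase gene Nop2 at −0.86, Rrs1 at −0.79, the helicase gene Ddx18 at −0.75 and Noc3l at −0.66. Ebna1bp2 changed by −0.60, Noc2l by −0.56 and Nip7 by −0.42, and each passed the test. Noc2l shares 20.9% of its exon bases with Samd11 on the other strand.

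The members that contain snoRNA genes were among those with the larger falls. By the GENCODE M21 annotation of GRCm38, 7 of the 40 genes (17.5%) contain a snoRNA gene on their own strand, against 206 of the 11545 protein-coding genes of the table (1.78%). The 7 hosts are Ncl, Gnl3, Nop56, Nop58, Dkc1, Wdr43 and Tsr1, and together they contain 21 snoRNA genes. Their changes after doxycycline ran from −1.47 to −0.98 with a median of −1.11. The 33 members without one ran from −1.32 to −0.34 with a median of −0.76, and the difference was not tested. With Id2 the medians were −0.11 for the 7 hosts and −0.15 for the 33 others, and −0.03 and −0.04 without control-GFP replicate 3, a library described below. The change after doxycycline was only weakly related to exon length or level among the 40, with Spearman's rho of −0.20 for length and −0.24 for mean log2 CPM, which share the same libraries.

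The fall extended to the other genes of the pathway. Of 130 further ribosome biogenesis genes with a row in the doxycycline table, 117 were called lower, 2 higher and 11 neither, with a median of −0.48. Among 12 other RNA polymerase I genes, 10 were called lower, with Taf1d, a subunit of its promoter selectivity factor, at −0.67, while Znrd1, a polymerase subunit, was at 0.00 and did not pass the test. Of 47 other genes of small subunit assembly, 43 were called lower, with the largest fall in Rcl1 at −1.25. The kinase gene Riok3 of this list was called higher, at 0.39, and at 0.15 and still called when scaled to read totals. Of 50 other genes of large subunit assembly, 44 were called lower, with the largest fall in Ppan at −1.25. The protease gene Senp3 of this list was called higher on the deposited values, at 0.22, but was at −0.02 and not called when scaled to read totals. Of 21 genes of snoRNP assembly and the rRNA exosome, 20 were called lower, with the exosome gene Exosc2 at −1.31, while Tgs1, which methylates the caps of small nuclear and nucleolar RNAs, was at −0.01 and did not pass the test.

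**Figure D3:**
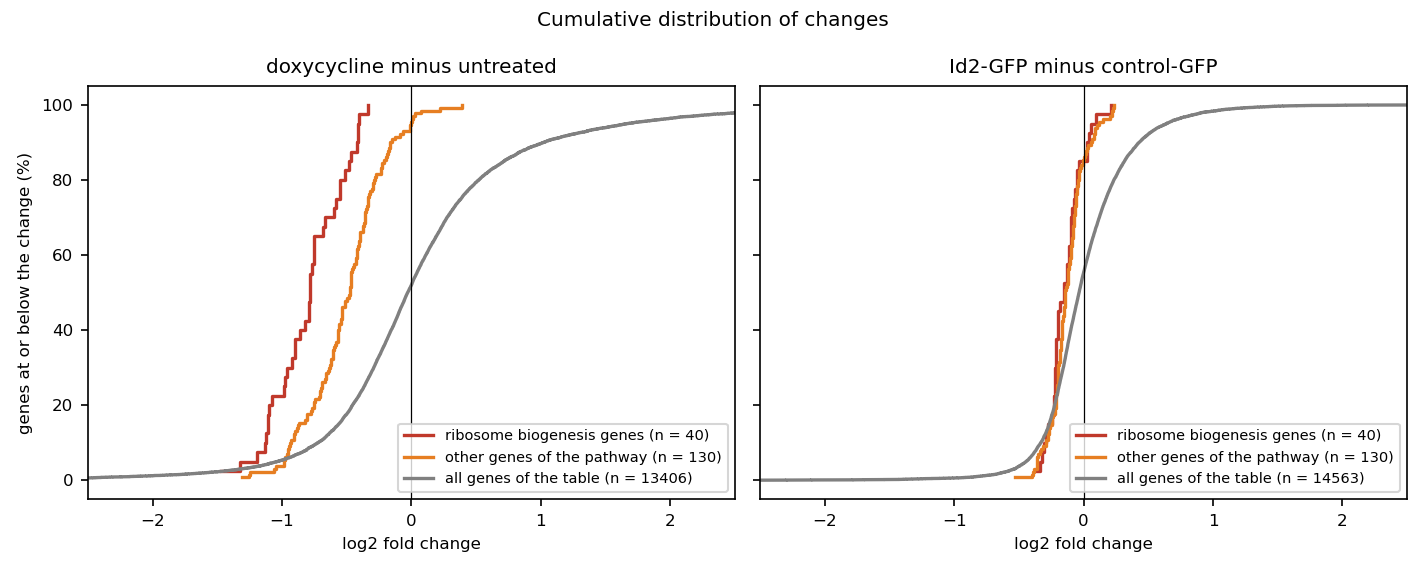
Cumulative share of genes at or below each log2 fold change, for the 40 ribosome biogenesis genes, 130 other genes of the pathway and all genes of each table; doxycycline minus untreated is on the left and Id2-GFP minus control-GFP on the right. On the left the curves are ordered by median, −0.79, −0.48 and −0.03, and on the right the medians of −0.15, −0.14 and −0.03 lie close together.

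Other markers moved along with the fall. All 12 proliferation markers fell after doxycycline, with a median of −0.57 and a summed level of 2719 to 2876 CPM in doxycycline libraries and 4482 to 4748 CPM in untreated libraries. The 9 macrophage marker symbols name 8 genes, as Adgre1 is the newer symbol of Emr1. All 8 had a row and rose, with a summed level of 3852 to 4845 CPM in doxycycline libraries and 451 to 699 CPM in untreated libraries. The part of these shifts in the fall of the ribosome biogenesis genes was not tested. Few markers of other blood cells had a row. Of 10 T and NK cell markers 1 had a row, Lck, at 0 to 0.295 CPM in doxycycline libraries and 0.465 to 1.04 CPM in untreated libraries. Of 7 B cell markers 1 had a row, Cd79b, at 7.09 to 21.5 CPM in doxycycline libraries and 9.67 to 22.7 CPM in untreated libraries. Of 9 erythroid markers 0 had a row, and of 5 megakaryocyte markers 3 had one, with a summed level of 6.02 to 13.1 CPM in doxycycline libraries and 22.1 to 47.3 CPM in untreated libraries. These 3 did not move alike: Itga2b and Gp9 were called lower, at −2.24 and −4.48 on the log2 scale, and Pf4 higher, at 0.94. Lck was called lower, at −2.48, and Cd79b was not called.

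In the transduced cells, 1 library stood apart in its scaling and in its trend with exon length. Relative to the mean of the other control libraries, the 40 genes in control-GFP replicate 3 deviated by a median of 0.43 on the log2 scale, from −0.66 for Utp20 to 1.49 for Nop10. Shorter genes deviated upwards, with Spearman's rho between deviation and exon length of −0.55 over the 40 genes and −0.47 over 13335 genes of the table that had a length. Its scaled library size was 0.913 of its read total, against 1.01 to 1.03 in the other 5 libraries. Id2-GFP replicate 2 lay lowest, with 39 of the 40 genes below the mean of the other Id2-GFP libraries. Its median deviation was −0.40. Against the others of their groups, Id2-GFP replicate 1 deviated by a median of 0.37 and control-GFP replicate 2 by −0.37. By this median alone, control-GFP replicate 3 was thus not set apart. The medians and the changes of named members with Id2 are therefore given also without control-GFP replicate 3, which turned the direction of 16 of the 40 members.

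**Figure D4:**
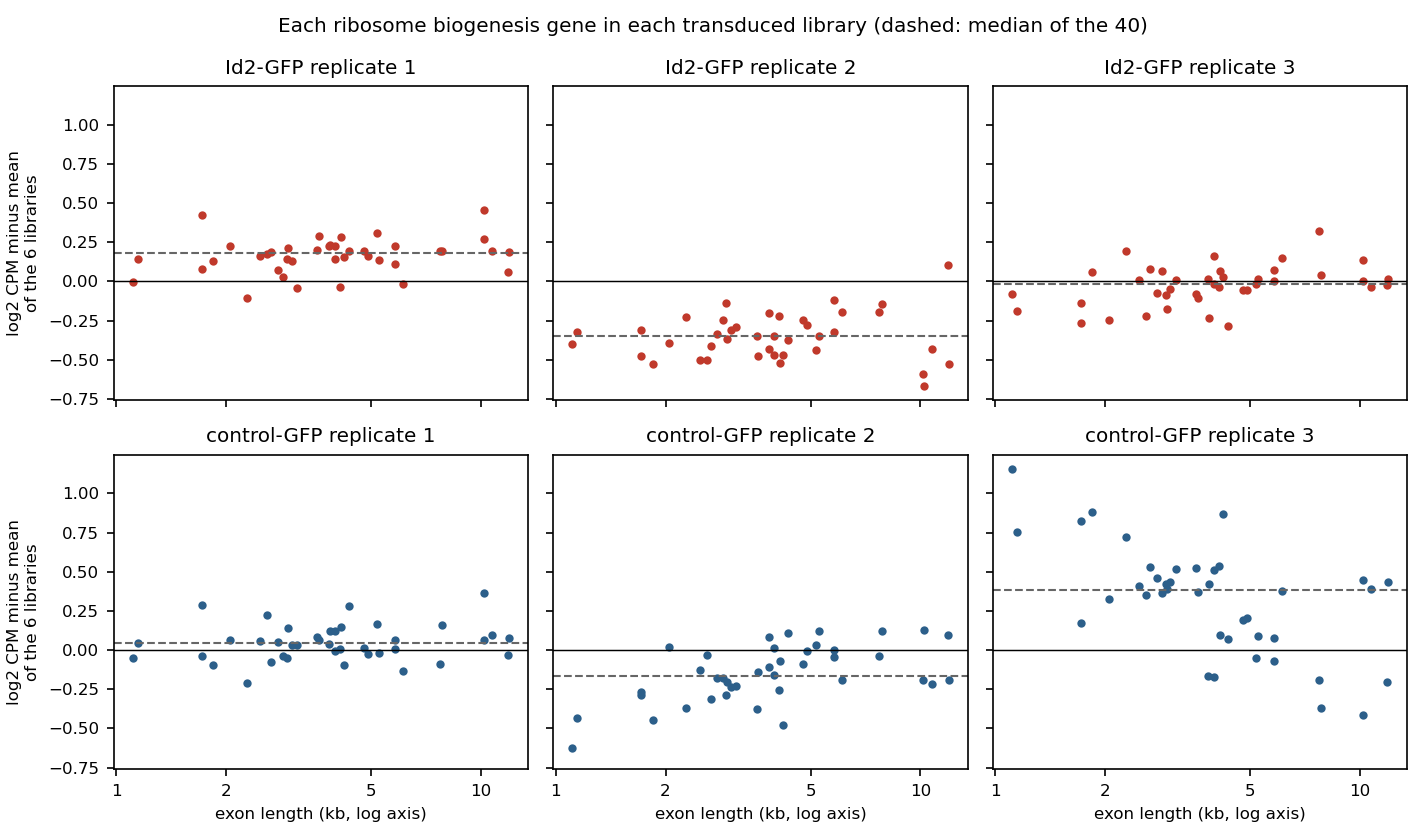
Log2 CPM of each of the 40 genes minus its mean over the 6 transduced libraries, against exon length in kilobases on a log axis, with a panel for each library, Id2-GFP above control-GFP; the dashed line is the median of the 40. In control-GFP replicate 3 short genes lie high, up to 1.16 for Nop10, and long ones low, down to −0.42 for Utp20, and in Id2-GFP replicate 2 the median is −0.35.

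Id2 itself was 1266, 952 and 1631 CPM in Id2-GFP libraries, against 25.8, 31.2 and 51.5 CPM in control-GFP libraries (5.18 on the log2 scale, limma adjusted p = 0.00264). In the other experiment Id2 averaged 86.4 CPM in doxycycline libraries and 27.7 CPM in untreated libraries (1.66, limma adjusted p = 3.45e-06). Mll1 averaged 3107 CPM in Id2-GFP and 3377 CPM in control-GFP libraries, and Mllt3 averaged 431 and 505 CPM. Neither was called with Id2. With Id2, 0 of the 40 ribosome biogenesis genes passed the test in either direction, where limma called 0.0137% of the 14563 genes, which is 2 genes. None of the 40 reached an unadjusted p below 0.05, which 2.45% of all genes did. With the replicate number as a block limma called 35 genes of the table (0.24%) and still 0 of the 40, whose lowest adjusted p was then 0.883. For all 40 genes the Id2-GFP and control-GFP libraries overlapped, whereas 3.77% of all genes had Id2-GFP libraries wholly below and 3.18% wholly above control-GFP libraries. Direction alone was lower in 34 of the 40 and in 55.3% of all genes, with a median change of −0.15 beside −0.03 over all genes. Without control-GFP replicate 3 the median was −0.04, with 24 lower and 16 higher, and without Id2-GFP replicate 2 it was −0.005, with 22 lower and 18 higher. Other left-out libraries made it larger: without control-GFP replicate 2 it was −0.31, with 33 lower, and without Id2-GFP replicate 1 it was −0.29, with 38 lower. In the last of these, 2 members had an unadjusted p below 0.05, and 0 were called with any library left out. Without Id2-GFP replicate 3 or control-GFP replicate 1 it was −0.18.

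The replicates did not share a direction. The median of the 40 changes was 0.12 in replicate 1, with 36 genes higher in Id2-GFP. It was −0.18 in replicate 2 and −0.44 in replicate 3, with 32 genes lower in each. Only Rrp12, Noc4l and Nip7 were lower in all 3 replicates, which is 3 of 40, where 14.6% of all genes were. Without a block, the 95% intervals exclude a rise of 1 on the log2 scale for all 40 genes. They exclude a fall of 1 for 36 of the 40. With a library or a replicate left out, that fall was excluded for 13 to 39 of the 40, the fewest without replicate 1. A rise of 1 was then excluded for 39 or 40 of the 40. With all libraries and the replicate number as a block, the intervals exclude both a rise and a fall of 1 for all 40. None of these sets of intervals excludes smaller changes. Without a block, the median standard error of a member was 0.226 in this comparison and 0.0539 in the comparison with doxycycline. With the block these were 0.197 and 0.0485.

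The medians of the roles in the transduced cells ran from −0.28 for box H/ACA to −0.02 for RNA polymerase I and its cofactor. Without control-GFP replicate 3 they ran from −0.09 for small subunit assembly to 0.08 for box C/D, with box H/ACA at 0.03, so the order of the roles rests on that library. Dkc1, which had the largest fall after doxycycline, had 119.7, 68.6 and 103 CPM in Id2-GFP libraries, against 109, 93.9 and 105 CPM in control-GFP libraries, and its change was −0.11 (95% interval −0.65 to 0.42) and −0.10 without control-GFP replicate 3. Gar1 had 33.2, 25.3 and 26.1 CPM in Id2-GFP libraries, against 30.6, 25.8 and 55.7 CPM in control-GFP libraries. Its change was −0.33, the largest of the box H/ACA role, and −0.00 without the control library at 55.7 CPM. Of the box C/D role, Nop56 had 268, 236 and 268 CPM in Id2-GFP libraries, against 276, 231 and 399 CPM in control-GFP libraries, a change of −0.20, or 0.02 without control-GFP replicate 3. Rrp9 had 35.8, 29.3 and 30.5 CPM in Id2-GFP libraries, against 31.2, 26.5 and 43.2 CPM in control-GFP libraries, a change of −0.05, or 0.14 without that library. In each of Gar1, Nop56 and Rrp9 the highest library was control-GFP replicate 3.

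The small subunit gene Noc4l, whose change of −0.36 was the lowest of the 40, had 49.98, 31.3 and 37.9 CPM in Id2-GFP libraries, against 51.7, 43.3 and 56.5 CPM in control-GFP libraries (SE 0.22, limma adjusted p = 0.998). Its change without control-GFP replicate 3 was −0.28. Tsr1 had 57.9, 42.9 and 49.9 CPM in Id2-GFP libraries, against 50.9, 52.4 and 44.1 CPM in control-GFP libraries, and its change was 0.03, or −0.05 without that library. Rrp1b lay at the other end of the 40 with a change of 0.21, or 0.17 without it, and its groups overlapped as well. Rrs1, a large subunit assembly factor, had 69.2, 45.2 and 50.02 CPM in Id2-GFP libraries, against 61.9, 60.1 and 74.1 CPM in control-GFP libraries, a change of −0.27, or −0.18 without control-GFP replicate 3. Noc3l of the same role had 31.6, 21.2 and 30.1 CPM in Id2-GFP libraries, against 29.3, 27.2 and 23.9 CPM in control-GFP libraries, a change of 0.03, or −0.05 without it. For both genes Id2-GFP replicate 1 was above and Id2-GFP replicate 2 below every other Id2-GFP library.

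Among the nucleolar organisers, Nolc1 had 169, 111 and 151 CPM in Id2-GFP libraries, against 153, 138 and 218 CPM in control-GFP libraries, a change of −0.23, or −0.03 without control-GFP replicate 3. Gnl3 had 93.2, 82.3 and 105 CPM in Id2-GFP libraries, against 85.7, 82.6 and 123 CPM in control-GFP libraries, a change of −0.04, or 0.14 without it. The groups of both genes overlapped. In the RNA polymerase I role, Tcof1 had 127, 91.3 and 117 CPM in Id2-GFP libraries, against 115, 126 and 124 CPM in control-GFP libraries, a change of −0.13, or −0.12 without control-GFP replicate 3. Polr1b had 57.4, 49.1 and 55.8 CPM in Id2-GFP libraries, against 53.4, 53.1 and 50.7 CPM in control-GFP libraries, a change of 0.04, or 0.02 without it. Polr1b was among the steadiest members, with a standard error of 0.153.

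Of the 130 other genes of the pathway, 0 were called with Id2, and their median change was −0.14, or −0.02 without control-GFP replicate 3. Myc had 108, 121 and 212 CPM in Id2-GFP libraries, against 92.4, 121 and 269 CPM in control-GFP libraries. Its change was −0.04 (SE 0.42, limma adjusted p = 0.998). The highest Myc value was that of control-GFP replicate 3, so this change rests in part on that library. A change of Myc without it is not given here. The 12 proliferation markers had changes of −0.56 to −0.16, and 0 passed the test. All 12 were lower in direction, as were 55.3% of all genes, with a median of −0.44. Without control-GFP replicate 3 their median was −0.47, again with 12 lower. Their summed level was 2817 to 4315 CPM in Id2-GFP libraries and 3896 to 4566 CPM in control-GFP libraries. The tables were normalized apart, and no test was made between them.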

How the data were processed

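Total RNA from 14 cultures or sorted fractions of mouse leukaemia cells was sequenced from TruSeq V2 libraries, per the labels' protocols. CASAVA 1.8.2, mm10, TopHat2, HTSeq and limma are listed in the submitters' processing notes; strand and scaling method are not given in the sources used here. The authors deposited log2 CPM values in 2 tables, 1 for doxycycline and untreated libraries and 1 for Id2-GFP and control-GFP libraries. Each deposited log2 value is the log2 CPM of a read count raised by 0.5, at a library size that had been scaled: 100% of values gave whole reads within 0.01 read. 13347 of 13406 genes (doxycycline table) and 14520 of 14563 (transduced table) exceeded 1 CPM in 2 or more libraries, and the authors' filter is not known. 13 repeated entries were left out.

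The deposited log2 values were fitted with limma 3.58.1 in R 4.3.3 (variance trend, no block), separately in each table, since the tables were normalized apart. P-values are two-sided and Benjamini-Hochberg adjusted over all genes of a table, with a threshold of 0.05. Lengths, snoRNA genes and exon overlaps came from GENCODE M21 and promoters from RefSeq, both on GRCm38.

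Pair labels in the doxycycline titles and replicate numbers in the transduced titles mark the libraries of 1 pair. Deviations from group means of same-numbered libraries correlated at 0.514, 0.552, 0.483 and 0.454 in the doxycycline table and at 0.472, 0.581 and 0.557 in the transduced table, so the numbers pair the libraries. The block was an alternative, beside other scalings, offsets, filters, variance models and left-out libraries. The 40 members, the other lists and the roles were chosen with earlier results of these data known. Libraries are named in full for the members with the largest and smallest change of each role.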

Additional observations from a re-analysis of the deposited data

Results flagged for a closer look

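In 4 of 80 groups of 4 libraries checked among the ribosome biogenesis genes, 1 library lay far from the others. This was judged by its gap over the range of the group, both in log2 CPM, against Dixon's critical value for 4 values. Chance gives about 1 in 20 such groups. All 4 were untreated groups. Untreated replicate 4 was lowest for Polr1a, at 81.5 CPM against 89.1 to 89.3 CPM in the others (gap ratio 0.978), and for Nop10, at 45.8 CPM against 50.6 to 51.3 CPM (gap ratio 0.874). Untreated replicate 1 was highest for Nhp2, at 97.2 CPM against 83.3 to 84.4 CPM (gap ratio 0.911), and for Wdr12, at 66.6 CPM against 59.5 to 60.5 CPM (gap ratio 0.857). Each of these values was above every doxycycline library of its gene.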

How the results depend on the processing

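Members called lower after doxycycline numbered 40 under all 21 alternatives, and 0 were called with Id2 under all 18. The median change after doxycycline was −1.03 with library totals and −0.85 with quantile normalization, and −0.81 to −0.77 with libraries or pairs left out. Library totals also left 1 other pathway gene called higher in place of 2. The median with Id2 was −0.31 to −0.005 with libraries or pairs left out and −0.003 with array weights. Over all genes, the replicate block gave 19 lower and 16 higher calls with Id2, against 0 lower and 2 higher without it, and changed no member's call. The higher calls were 0 without Id2-GFP replicate 1, replicate 1 or replicate 2, and 1 without Id2-GFP replicate 3 or with genes of a mean log2 CPM of at least 2. There was 1 lower call without control-GFP replicate 3 and 1 with array weights. The cause was not tested. Without a block, the 95% intervals of the 40 had a median log2 width of 1.05 with Id2 and 0.243 after doxycycline. With the block these widths were 0.881 and 0.224. Changes well under 1 could therefore be missed with Id2 in either fit.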

Other observations

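The genes of the ribosomal proteins themselves were also measured. Of 79 cytosolic ribosomal protein genes, 53 were called lower and 0 higher after doxycycline (63 lower with the pair as a block), with a median change of −0.28 on the log2 scale. Of 75 mitochondrial ribosomal protein genes, 49 were called lower and 2 higher, with a median of −0.26. The same test called 33.8% of all genes lower and 31.3% higher. The median of the 40 ribosome biogenesis genes was −0.79, and the difference between the lists was not tested. With Id2, 0 of 79 and 0 of 75 were called, with medians of −0.14 and −0.22. Without control-GFP replicate 3 these medians turned to 0.33, with 79 of 79 higher in Id2-GFP libraries, and 0.05, with 53 of 75 higher. Cytosolic ribosomal protein genes have many near-identical pseudogenes, and how shared reads were counted is not given in the sources used here. Rps6 had 12.5 to 16.5 CPM in doxycycline libraries and 18.6 to 20.6 CPM in untreated libraries, and among transduced libraries it had 671 to 963 CPM in Id2-GFP libraries and 628 to 1764 CPM in control-GFP libraries. The tables were normalized apart, and these levels were not tested against each other.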
